A study of Mus musculus with 6 samples.

Results

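The genes described here encode the pyruvate dehydrogenase kinases (Pdk1, Pdk2, Pdk3 and Pdk4), the phosphatases that oppose them (Pdp1 and Pdp2, with the regulatory subunit Pdpr) and 3 subunits of the complex they act on (Pdha1, Pdhb and Pdhx). These 10 genes were picked by name from the 43432 genes of the deposited table. Every name matched 1 row, ignoring case because the table writes names in capitals, and each match was checked by its Ensembl identifier. The family was selected on a known result, the difference of Pdk4 between the groups, so the values of Pdk4 are given as a description without a test.

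The data are RNA sequencing of right and left atria from wild-type C57/Bl6J mice, 3 on a high-fat diet (HFD) and 3 on control chow, each fed for 10 weeks from 6 weeks of age. The labels name no transgene and no drug in either group. Each sample is called a mouse here, though nothing states whether it came from a single animal. Group was read from the title of each sample, which matches its column in the table. The labels also carry a treatment entry that swaps the diets of all 6 mice, and if that entry were right every direction below would be turned around. The reads on genes numbered 15874251 to 28971508 per mouse, control mouse 2 being the deepest and also the mouse with the largest mitochondrial share (30.7% against 19.5% to 24.4%). The atrial natriuretic peptide gene Nppa reached 171702 to 333975 normalized counts in the 6 samples. The ventricular light chain gene Myl2 lay between 2290 and 8176, with control mouse 2 the highest.

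The pyruvate dehydrogenase complex sits in the mitochondrial matrix and turns pyruvate, the end product of glycolysis, into acetyl-CoA for the citric acid cycle. The kinases phosphorylate its E1 alpha subunit and switch the complex off, and the phosphatases remove the phosphate and switch it on again. In heart muscle this switch is known for setting how much glucose carbon is burned when fatty acids are plentiful, and Pdk4 is the kinase known to be induced by fasting, by fatty acids acting through PPAR receptors and by glucocorticoids.

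The 4 kinase genes encode enzymes with the same substrate, and the sequence ahead of each is shown as a description. Whether it bears on the differences between the diets was not tested. The stretches were copied from the RefSeq promoter table (GRCm38.p6), which had entries for 9 of the 10 genes and none for Pdp1. Each runs from 250 to 61 bases before the RefSeq start site, 5′ to 3′ on the gene's own strand, and the last 60 bases were left out because some annotated first exons begin there. Capitals mark CCAAT boxes (CCAAT or ATTGG), E-boxes (CACGTG) and GC boxes (GGGCGG or CCGCCC). The Pdk4 stretch is at chr6:5496339-5496528 on the minus strand, that of Pdk2 at chr11:95041432-95041621 on the minus strand, that of Pdk1 at chr2:71872974-71873163 on the plus strand and that of Pdk3 at chrX:93832211-93832400 on the minus strand.
Pdk4: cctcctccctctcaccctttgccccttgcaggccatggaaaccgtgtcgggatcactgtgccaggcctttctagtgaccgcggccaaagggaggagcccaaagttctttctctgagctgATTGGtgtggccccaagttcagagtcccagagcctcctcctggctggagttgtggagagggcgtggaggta
Pdk2: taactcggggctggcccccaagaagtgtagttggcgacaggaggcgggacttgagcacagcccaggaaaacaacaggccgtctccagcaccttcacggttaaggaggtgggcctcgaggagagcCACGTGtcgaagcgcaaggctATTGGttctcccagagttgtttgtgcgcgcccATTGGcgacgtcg
Pdk1: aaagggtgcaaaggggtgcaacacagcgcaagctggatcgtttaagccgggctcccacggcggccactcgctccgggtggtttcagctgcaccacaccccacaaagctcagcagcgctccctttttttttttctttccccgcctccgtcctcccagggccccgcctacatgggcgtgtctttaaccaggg
Pdk3: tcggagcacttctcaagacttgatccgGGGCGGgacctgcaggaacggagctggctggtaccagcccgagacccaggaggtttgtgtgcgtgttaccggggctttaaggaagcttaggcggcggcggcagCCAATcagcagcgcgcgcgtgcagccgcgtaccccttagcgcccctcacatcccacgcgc

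The genes are scattered over the genome (GRCm38). Among the kinases, Pdk1 spans 71873224 to 71903858 on chromosome 2, Pdk2 spans 95026258 to 95041354 on chromosome 11 and Pdk3 spans 93764607 to 93832201 on the X chromosome. Among the phosphatases, Pdp1 spans 11958184 to 11966452 on chromosome 4, and Pdp2 (104591468 to 104596836) and Pdpr (111094630 to 111137074) share chromosome 8. Of the subunits, Pdha1 lies at 160122209 to 160138413 on the X chromosome, Pdhb at 8165991 to 8172992 on chromosome 14 and Pdhx at 103021075 to 103073513 on chromosome 2. The longest coding transcript of each kinase has 11 exons, except that of Pdk3, which has 12.

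The Pdk4 stretch held 1 CCAAT box and no E-box or GC box. The Pdk2 stretch held 1 E-box and 2 CCAAT boxes, the Pdk3 stretch 1 CCAAT box and 1 GC box, and the Pdk1 stretch none of these. Among 32851 promoter windows of the same 190 bases, 26.7% held a CCAAT box, 22.8% a GC box and 4.03% an E-box. The letters of a FOXO site (GTAAACA, in 2.49% of all windows), a nuclear receptor core element (AGGTCA, 10.8%) and a TATA box (TATAAA, 8.73%) were in none of the 11 windows of the 9 genes, both strands searched. The core of a glucocorticoid receptor element (AGAACA, 12.7%) was present only at a further Pdk1 start site. Sites outside these windows, or with other letters, were not searched, so absence here does not show that a gene lacks such sites. None of these motifs overlapped in the 4 stretches shown. The Pdk4 stretch had 5 CpG dinucleotides, against 12 in Pdk1, 14 in Pdk2 and 19 in Pdk3 and a median of 4 over all windows.

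Pdk4 (ENSMUSG00000019577, chromosome 6, 5483351 to 5496309 in GRCm38, minus strand) was far more abundant in the atria of mice on the HFD. Its normalized counts, which are reads divided by 1 size factor per sample, were 58780, 64656 and 28363 in HFD mice 1, 2 and 3, and 5700, 4800 and 5656 in control mice 1, 2 and 3. The groups did not overlap, and the lowest HFD mouse was 4.98 times the highest control mouse. The means were 50600 ± 19480 in HFD and 5386 ± 507 in control atria (SD, n = 3 each), a ratio of 9.40. On the log2(normalized count + 1) scale used for all fold changes here, the difference was 3.15 ± 0.26 (SE), and it stayed between 2.93 and 3.52 when any 1 mouse was left out. The HFD mice were uneven among themselves, with a highest value 2.28 times the lowest, against 1.19 times in the controls. HFD mouse 3 was the low one.

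The size of this signal is easiest to see against other genes. Pdk4 took 0.446%, 0.482% and 0.196% of the reads outside mitochondrial genes in HFD mice 1, 2 and 3, and 0.0349% to 0.0419% in control mice. Per kilobase of exon it ranked 16, 11 and 44 among 21461 nuclear protein-coding genes in the HFD mice and 350, 400 and 311 in the controls. Pdha1, the E1 alpha subunit that Pdk4 phosphorylates, ranked 98 to 130 in all 6 mice. Pdk4 mRNA thus ranked above its substrate's mRNA in each HFD mouse and below it in each control mouse.

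**Figure D1:**
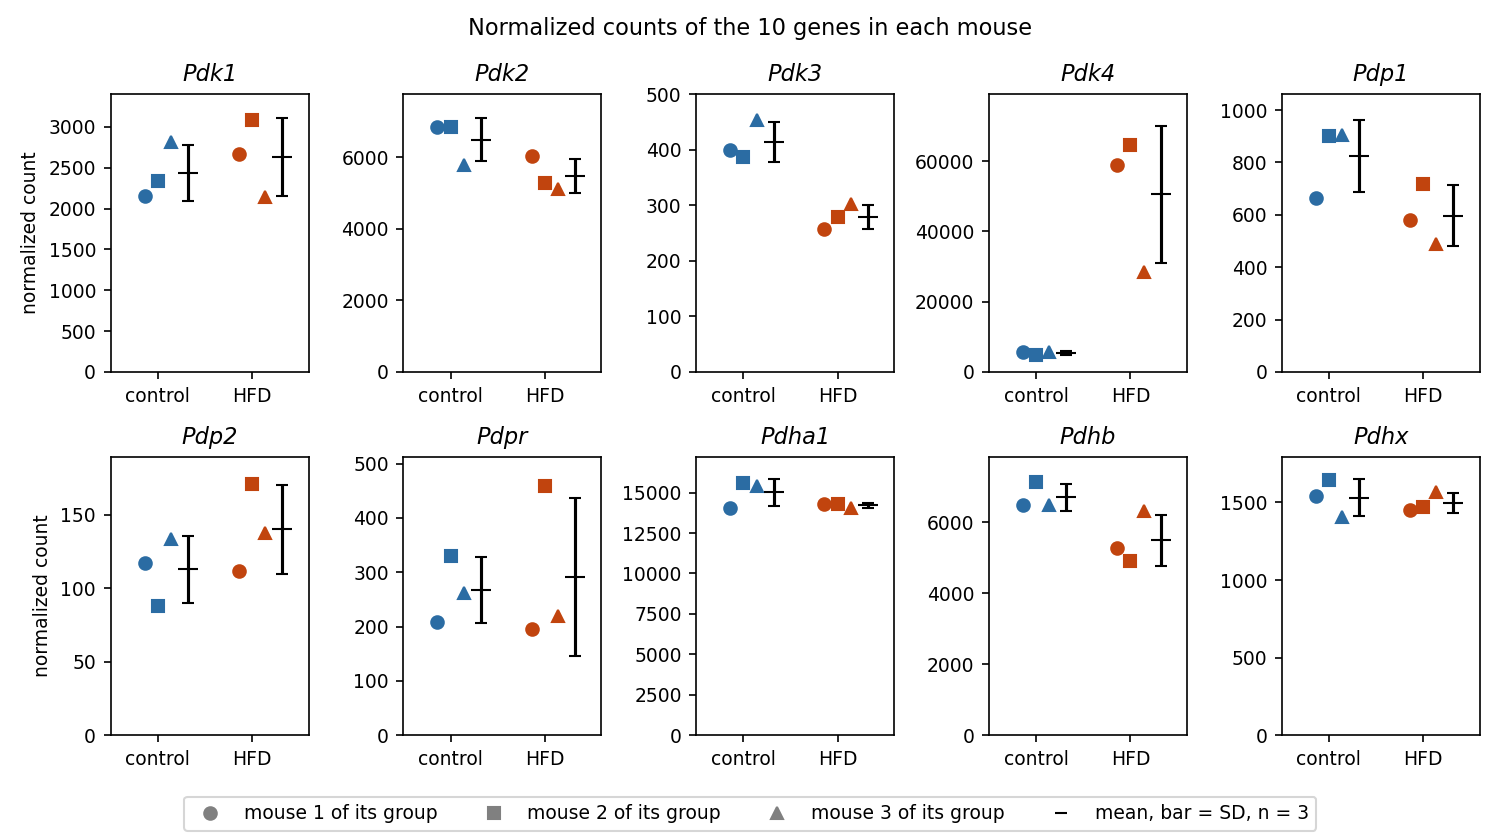
Normalized count (linear axis from 0) of each of the 10 genes in the 3 control (blue) and 3 HFD (orange) mice, with symbol shape for the mouse number within its group and the black bar for the mean and SD of 3 mice. Pdk4 was between 28363 and 64656 in HFD mice and between 4800 and 5700 in controls, and Pdk3 and Pdhb were the only other genes without overlap, both with lower values in HFD mice.

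The other 9 genes were read one at a time from a limma fit over all genes whose mean reached 10 normalized counts, with Benjamini-Hochberg adjustment over the 15275 genes tested. All 10 members passed that filter. None of the 9 had an adjusted p under 0.05, in a comparison where 114 genes did (0.746% of those tested, 0.484% higher and 0.262% lower in HFD atria). Their median log2 difference was -0.08, against 0.00 over all genes tested, with 6 of the 9 below 0. At an unadjusted p under 0.05, 3 of the 9 passed (Pdk3, Pdp1 and Pdhb, each with a lower mean in HFD mice), against 12.2% of all genes. The values of HFD and control mice did not overlap for 2 of the 9 (Pdk3 and Pdhb), or 22.2%, and for 18.0% of all genes. These shares of members rest on 3 and 2 genes. With 3 mice in each group an exact two-sided permutation test of a single gene cannot give a p below 0.1.

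Pdk2 is the broadly expressed kinase and in the control atria it was the most abundant of the 4 per kilobase. It had normalized counts of 6023, 5284 and 5123 in HFD mice and 6838, 6847 and 5791 in controls. The groups overlapped, because control mouse 3 lay below HFD mouse 1. The log2 difference was -0.24 ± 0.12 (SE), with an adjusted p of 0.455 by limma and a 95% interval from -0.51 to 0.02, which leaves room for a level as low as 0.702 of the control level.

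Pdk1, known as a target of the hypoxia-inducible factor, was the third kinase by level per kilobase in control atria. It had 2673, 3086 and 2142 normalized counts in HFD mice and 2160, 2340 and 2818 in controls, and both the highest and the lowest value belonged to HFD mice. Its log2 difference of 0.10 ± 0.15 (limma, adjusted p = 0.842) had a 95% interval from -0.24 to 0.44 and took the opposite sign, -0.02, without HFD mouse 2.

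Pdk3, best known from testis and brain, was the least abundant kinase in these atria, where its mean was lower in the mice on the HFD. The normalized counts were 258, 278 and 302 in HFD mice and 400, 387 and 455 in controls. The groups did not overlap, and the spread within each was narrow, with a highest value 1.17 times the lowest in HFD mice and 1.18 times in controls. The log2 difference was -0.56 ± 0.14, or 0.676 of the control mean, with an unadjusted p of 0.00221 and an adjusted p of 0.105 by limma. DESeq2 on the recovered reads gave an adjusted p of 0.0411, and the adjusted p in the other 14 alternatives ran from 0.064 to 0.285. Between 257 and 565 reads lay behind each value, so counting error alone was up to 6.24%.

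**Figure D2:**
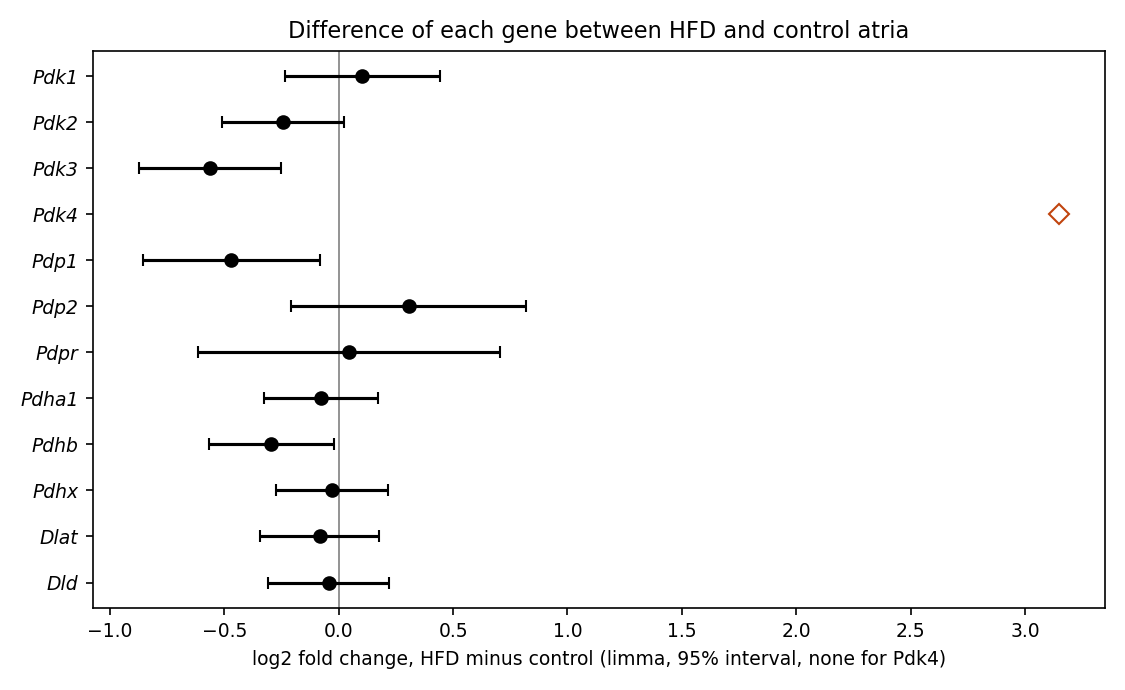
Log2 fold change, HFD minus control, of the 10 genes and of the further subunits Dlat and Dld, with 95% intervals from limma (3 mice in each group). Pdk4, the gene the family was selected on, is drawn as an open diamond at 3.15 without an interval, and the other 11 lie between -0.56 and 0.31.

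Because the kinases differ in mRNA length, their levels were compared with each other per kilobase of exon. Pdk4 made up 38.5%, 34.3% and 40.5% of the summed kinase level per kilobase in control mice 1, 2 and 3, and 87.7%, 89.4% and 80.1% in HFD mice 1, 2 and 3. Pdk2 had the larger share in each control mouse, 51.2%, 54.3% and 46.0%, and 9.98%, 8.11% and 16.0% in HFD mice. Shares add to a whole, so that of Pdk2 depends on Pdk4, and its own level per kilobase was 1731 ± 152 in HFD and 2052 ± 192 in control atria (SD, n = 3). Pdk1 to Pdk3 together had 2349, 2176 and 2013 normalized counts per kilobase in HFD mice and 2596, 2616 and 2371 in controls. The groups did not overlap, but HFD mouse 1 and control mouse 3 were close, and 18.0% of all genes tested did not overlap either. Most of this level was Pdk2, whose own groups overlapped. Of the sum of all 4 kinases, Pdk1 held 7.74% ± 1.27 in control and 2.15% ± 0.50 in HFD atria, and Pdk3 3.98% ± 0.41 and 0.742% ± 0.370.

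The ratio of Pdk4 to Pdk2 per kilobase went from 0.751, 0.632 and 0.880 in the control mice to 8.79, 11.02 and 4.99 in the HFD mice. The order of both genes was thus the reverse in the HFD mice. With coding length in place of exon length the Pdk4 share was 36.6% in control and 84.7% in HFD atria, and with the longest transcript 30.3% and 81.2%. These are descriptions without a test, because Pdk4 enters each of them.

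**Figure D3:**
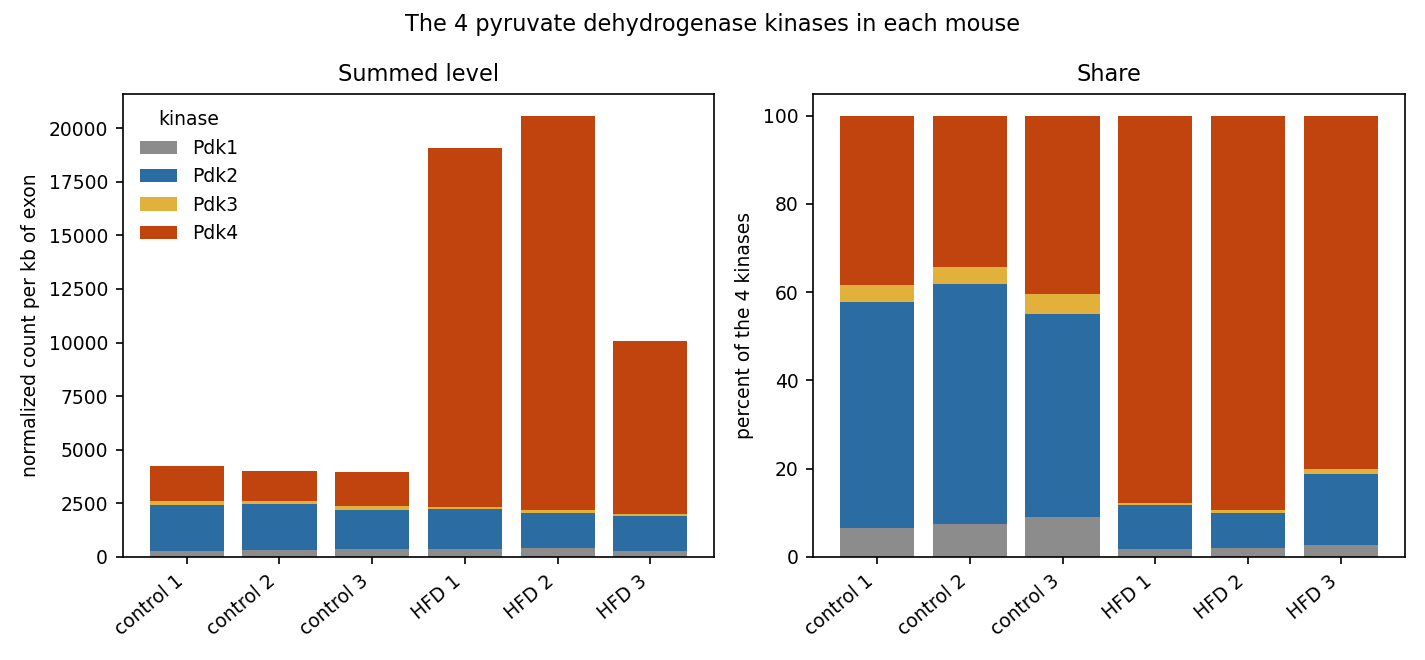
Left, summed level of the 4 kinases in normalized counts per kilobase of exon, and right, the share of each in percent, as stacked bars from 0 for each of the 6 mice. Pdk4 makes up 34.3% to 40.5% of the sum in control mice and 80.1% to 89.4% in HFD mice, and the part of the left bars below Pdk4 is 2013 to 2349 in HFD mice and 2371 to 2616 in controls.

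The order of all 10 levels per kilobase in control atria was Pdha1, Pdk2, Pdhb, Pdk4, Pdhx, Pdk1, Pdp1, Pdk3, Pdpr and Pdp2. The ranges over mice overlapped between the neighbours Pdk2 and Pdhb, Pdhx and Pdk1, and Pdp1 and Pdk3, and all other neighbours were separate. In HFD atria Pdk4 stood first at 14412 ± 5548 normalized counts per kilobase (SD, n = 3), ahead of Pdha1 at 3806 ± 44, and the remaining 9 genes kept the control order, with overlap between the same 3 pairs of neighbours. With coding length Pdhb passed Pdk2 and Pdk1 passed Pdhx in both groups.

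Per kilobase, Pdp2 and Pdpr were the least abundant members in both groups, and Pdp1 overlapped Pdk3. Pdp1, the calcium-stimulated catalytic subunit that is the main phosphatase of muscle, had 581, 719 and 488 normalized counts in HFD mice and 665, 900 and 905 in controls. Control mouse 1 fell inside the HFD range, so the groups overlapped. The log2 difference was -0.47 ± 0.17 (limma, unadjusted p = 0.0216 and adjusted p = 0.304), with a 95% interval from -0.85 to -0.08.

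Pdp2, the catalytic subunit that does not need calcium, had 112, 171 and 137 normalized counts in HFD mice and 118, 88.3 and 133 in controls. The groups overlapped and the log2 difference of 0.31 ± 0.23 had an adjusted p of 0.651 (limma). Only 105 to 168 reads lay behind these values, with a counting error of up to 9.76%, and the 95% interval reached from -0.21 to 0.82.

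Pdpr, which lowers the sensitivity of the phosphatase to magnesium, had 196, 459 and 220 normalized counts in HFD mice and 209, 330 and 261 in controls. HFD mouse 2 was 2.34 times the lowest HFD mouse, and leaving it out turned the log2 difference from 0.05 ± 0.30 (limma, adjusted p = 0.975) to -0.33. Its exons overlap those of 9430091E24Rik on the opposite strand (mean 31.2), and it is not stated whether the counting used strand.

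Set against each other per kilobase, the 4 kinases summed to 129, 109 and 76.2 times the sum of Pdp1 and Pdp2 in HFD mice and to 25.1, 18.5 and 17.8 times in controls. Without Pdk4 the ratio was 15.8, 11.5 and 15.2 in HFD mice and 15.4, 12.2 and 10.6 in controls. The groups overlapped in the second ratio, so the separation in the first came with Pdk4. These are mRNA ratios and say nothing of the activity of the proteins, which was not measured.

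None of the subunits of the complex passed the test. Pdha1, the phosphorylated E1 alpha subunit, had 14289, 14320 and 14024 normalized counts in HFD mice and 14042, 15589 and 15381 in controls. The HFD values lay within 1.02 times of each other and overlapped the controls. The log2 difference was -0.08 ± 0.11 (limma, adjusted p = 0.840), and the 95% interval from -0.33 to 0.17 leaves room for levels between 0.798 and 1.13 of the control level. Pdha1 shares exon sequence with Map3k15 on the opposite strand, whose mean was 19.1.

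Pdhb, the E1 beta subunit, had lower values in HFD mice, 5265, 4918 and 6310, than in controls, 6502, 7149 and 6480. The groups did not overlap, but HFD mouse 3 and control mouse 3 were close. The log2 difference was -0.29 ± 0.12 (limma, unadjusted p = 0.0373 and adjusted p = 0.370), or 0.819 of the control mean. Pdhb and Pdha1 form 1 enzyme, and the ratio of Pdhb to Pdha1 per kilobase was 0.356, 0.332 and 0.435 in HFD mice against 0.448, 0.444 and 0.407 in controls, with overlap through HFD mouse 3.

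Pdhx, which anchors the E3 enzyme to the core, had 1452, 1472 and 1570 normalized counts in HFD mice and 1541, 1645 and 1409 in controls. The groups overlapped and the log2 difference was -0.03 ± 0.11 (limma, adjusted p = 0.950). The subunits outside the family were not called either. Dlat, the E2 core, had a log2 difference of -0.08 ± 0.12 (limma, adjusted p = 0.834) and Dld, the E3 enzyme, one of -0.04 ± 0.12 (limma, adjusted p = 0.926). The testis form Pdha2 had 0 reads in all 6 samples.

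All tested genes were searched for profiles like that of Pdk4, so the likeness of those found is a description and not a test. The distance covers all 6 samples, so the difference between the groups enters it. The 5 genes whose centred log2 profile over the 6 samples was nearest to that of Pdk4 were Mt2 (root mean square distance 0.329), Ucp3 (0.347), Serpina3n (0.470), 4930511M06Rik (0.482) and Chac1 (0.484). Ucp3, a mitochondrial carrier of muscle, had 1778, 2003 and 691 normalized counts in HFD mice and 212, 244 and 151 in controls, so HFD mouse 3 was again the lowest HFD mouse. Mt2, a metallothionein, had 1075, 1061 and 722 in HFD mice and 171, 137 and 115 in controls. Chac1 had 343, 241 and 196 in HFD mice and 44.8, 52.7 and 31.7 in controls, so HFD mouse 2 was nearer to HFD mouse 3 there. The nearest profiles to Pdk2 were Vti1b (distance 0.0298), Ptdss2 (0.0322), Rgma (0.0342), Ubac1 (0.0366) and Echs1 (0.0372), all with a lower mean in HFD mice.

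Among the 6 atrial cardiomyocyte markers, Nppa, Myl4 and Myl7 also set HFD mouse 3 apart from HFD mice 1 and 2. The light chain gene Myl7 had 31186 and 27168 normalized counts in HFD mice 1 and 2 but 58765 in HFD mouse 3, beside 56346 to 60190 in controls. The summed level of the 6 markers, which Nppa dominates, was 285291, 286036 and 518840 in HFD mice 1, 2 and 3, and 440277 to 480266 in controls. The other atrial markers did not follow this pattern. Sln had 23714, 19693 and 19799 in HFD mice 1, 2 and 3, below the 25151 to 27600 of the controls in each. Bmp10 had 1386, 5575 and 7960 in HFD mice and 1375 to 5568 in controls, and Kcna5 had 227, 240 and 265 and 149 to 272. The part of these differences in the Pdk4 values was not tested. In bulk tissue fewer cells of a type and less RNA per cell cannot be told apart.

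**Figure D4:**
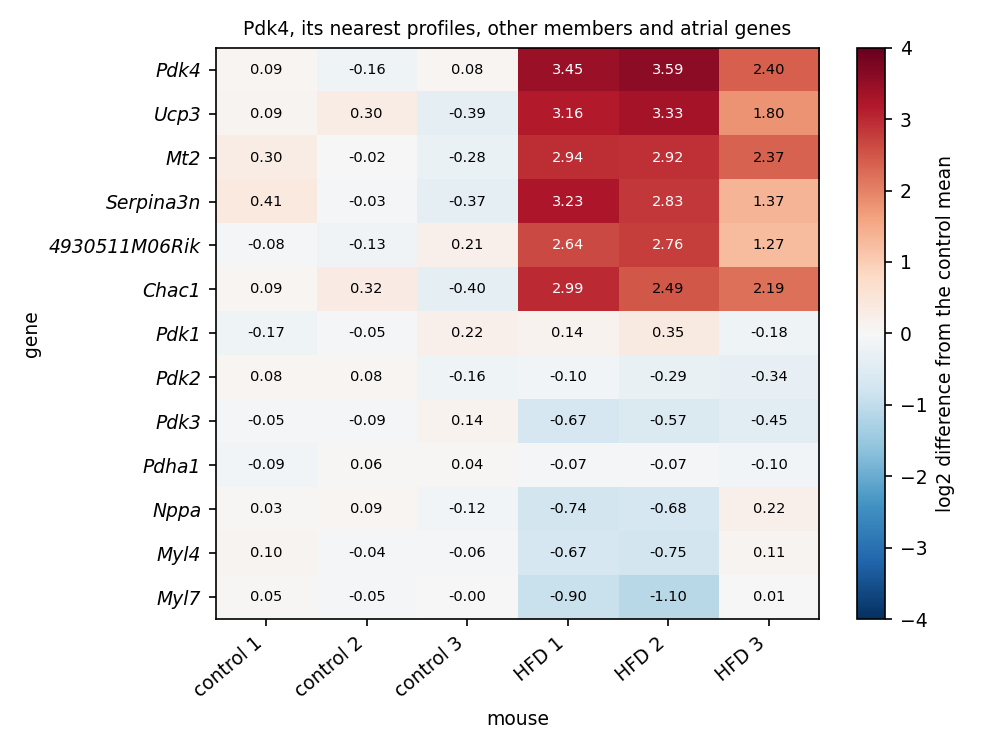
Log2 difference of each mouse from the mean of the 3 control mice for Pdk4, the 5 genes with the nearest profile, 4 further members and the atrial genes Nppa, Myl4 and Myl7, with the value printed in each cell (red higher, blue lower). Pdk4 was 3.45, 3.59 and 2.40 above the control mean in HFD mice 1, 2 and 3, while Myl7 stood at -0.90 in HFD mouse 1, still lower in HFD mouse 2 and at 0.01 in HFD mouse 3.

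Marker sums of other tissues varied as well. The 10 white or general adipocyte markers summed to 32908, 22821 and 19778 in HFD mice and 13901 to 21314 in controls. Most of each sum was Pnpla2, Fabp4 and Slc2a4. Of the 10 markers, 8 had a log2 difference above 0. In HFD mouse 2 Adipoq was at 146, within the 67.8 to 334 of the controls. Plin1 (91.8), Cidec (197), Cfd (775) and Retn (45.9) also lay within the control range in that mouse. Lep (2.04) and Slc2a4 (4324) lay below every control. Only Fabp4 at 6273 (controls 2949 to 4228), Lipe at 2219 (643 to 1091) and Pnpla2 at 8747 (4724 to 7137) were above every control. HFD mouse 1 differed, with Adipoq (533), Plin1 (491), Cidec (708), Cfd (1851) and Retn (125) above every control. Fabp4, Lipe and Pnpla2 were also above every control in that mouse, Slc2a4 (5045) was within the control range and Lep (9.04) was below it. The 4 brown adipocyte markers summed to 616 to 1283 in HFD mice and 187 to 330 in controls, with HFD mouse 2 the lowest HFD mouse. In the limma fit 1 of the 10 adipocyte markers (Lipe), 2 of the 3 brown adipocyte markers tested (Ucp1 and Cidea) and 1 of the 5 macrophage markers (Itgam) were called, each with higher values in HFD mice. Of all genes tested, 0.746% were called. Ucp1 had 706, 173 and 745 normalized counts in HFD mice and 86.2, 5.48 and 15.3 in controls. Of the 6 skeletal muscle markers the fast myosin genes Myh1 and Myh4 were at or near 0, with at most 5.10 normalized counts. The list summed to 9371 to 15262 in HFD mice and 11902 to 15879 in controls. Nearly all of that was Ckm, with 8967 to 14706 in HFD mice and 11550 to 15058 in controls. Of the 3 hepatocyte markers, Alb was at 0 in 5 of 6 samples, and the list did not exceed 36.2. The 5 endothelial markers summed to 14087 to 15398 in HFD mice and 11802 to 12280 in controls, and the 5 macrophage markers to 4223 to 4652 and 3244 to 4245. Sums of the ventricular (6882 to 9866 in HFD mice, 7919 to 17399 in controls), fibroblast (32832 to 34609 and 33273 to 38927) and red blood cell markers (990 to 1504 and 921 to 1358) overlapped between the groups. The part of these cell types in the Pdk4 difference was not tested.

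Around the complex, gene lists for its neighbours in metabolism were counted in the same limma fit. In that fit 12.2% of all genes tested had an unadjusted p under 0.05, the share beside which the list counts stand. Of 15 genes of pyruvate transport and other fates of pyruvate, all were tested and none was called by limma or edgeR (2 at an unadjusted p under 0.05), with a median log2 difference of -0.07. Pkm, which makes pyruvate, had a log2 difference of -0.03 ± 0.14, and Ldhb, the lactate dehydrogenase of heart, one of -0.15 ± 0.13. Gpt, an alanine transaminase named here after its values were seen, had 99.5, 87.7 and 114 normalized counts in HFD mice and 187, 214 and 149 in controls (limma, log2 difference -0.85 ± 0.20, adjusted p = 0.0898). DESeq2 called Gpt, with an adjusted p of 0.0215, and no other gene of the list.

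Of the 9 genes of the sister 2-oxoacid dehydrogenases with their own kinase and phosphatase, none was called by limma, edgeR or DESeq2 (3 at an unadjusted p under 0.05 by limma), with a median of -0.24 and 7 below 0. Ogdh and Dlst, of the 2-oxoglutarate complex, had log2 differences of -0.07 ± 0.14 and -0.23 ± 0.15. Of the 9 genes that make and attach lipoic acid, the cofactor of the E2 core, none was called by these tools (3 at an unadjusted p under 0.05 by limma) and the median was -0.09. These 3 did not share a direction. Isca1 and Bola3 had log2 differences of -0.06 ± 0.11 and -0.15 ± 0.15.

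Of 13 transcription factors and coactivators known to act on the kinase genes, none was called by limma or edgeR (3 at an unadjusted p under 0.05 by limma), with a median log2 difference of 0.14. The most abundant were Esrra (0.10 ± 0.12) and Ppargc1a (0.39 ± 0.17). Klf15, a glucocorticoid-responsive factor named after its values were seen, had 1337, 1122 and 902 normalized counts in HFD mice and 728, 814 and 521 in controls, without overlap (limma, log2 difference 0.71 ± 0.19, adjusted p = 0.129). Klf15 was the 1 gene of the list called by DESeq2 (adjusted p = 0.0149) and 1 of 2 called by limma without HFD mouse 3 (adjusted p = 0.0398). Ppara itself had 57.3, 177 and 112 in HFD mice and 86.2, 142 and 90.7 in controls, with overlap.

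By limma, calls were found in 1 list, that of 20 other genes known as targets of PPAR receptors in heart, most of which serve fatty acid uptake, storage or oxidation, and some of which, such as Angptl4 and Plin2, are also expressed in fat. Of the 19 tested, 6 rose in HFD atria and none fell by limma, where 0.746% of all genes tested were called. The median log2 difference was 0.68 against 0.00 over all genes, and 18 of the 19 had no overlap between the groups, against 18.0% of all genes. The 6 included Angptl4 (5.08 ± 0.30), an inhibitor of lipoprotein lipase, Ucp3 (2.76 ± 0.35), Acot2 (1.57 ± 0.23), a thioesterase, and the lipid droplet coat genes Plin5 (1.03 ± 0.20) and Plin2 (0.88 ± 0.16), with adjusted p from 0.000116 to 0.0485 by limma. Cd36, the fatty acid transporter, had a log2 difference of 0.72 ± 0.15 and Hadha, of beta-oxidation, one of 0.43 ± 0.11, neither past the threshold by limma. DESeq2 called both, with adjusted p of 0.000125 for Cd36 and 0.00745 for Hadha. Limma without HFD mouse 3 called Cd36 (adjusted p = 0.00455) but not Hadha. The list was written with earlier results of these data known and is not independent evidence of a direction. The count of 6 rests on the mice included, since it was 1 without control mouse 3 and 12 without HFD mouse 3, with 2 or 3 without each of the others. It also rests on the tool, with 0 for limma without a variance trend, 3 for edgeR and 15 for DESeq2.

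**Figure D5:**
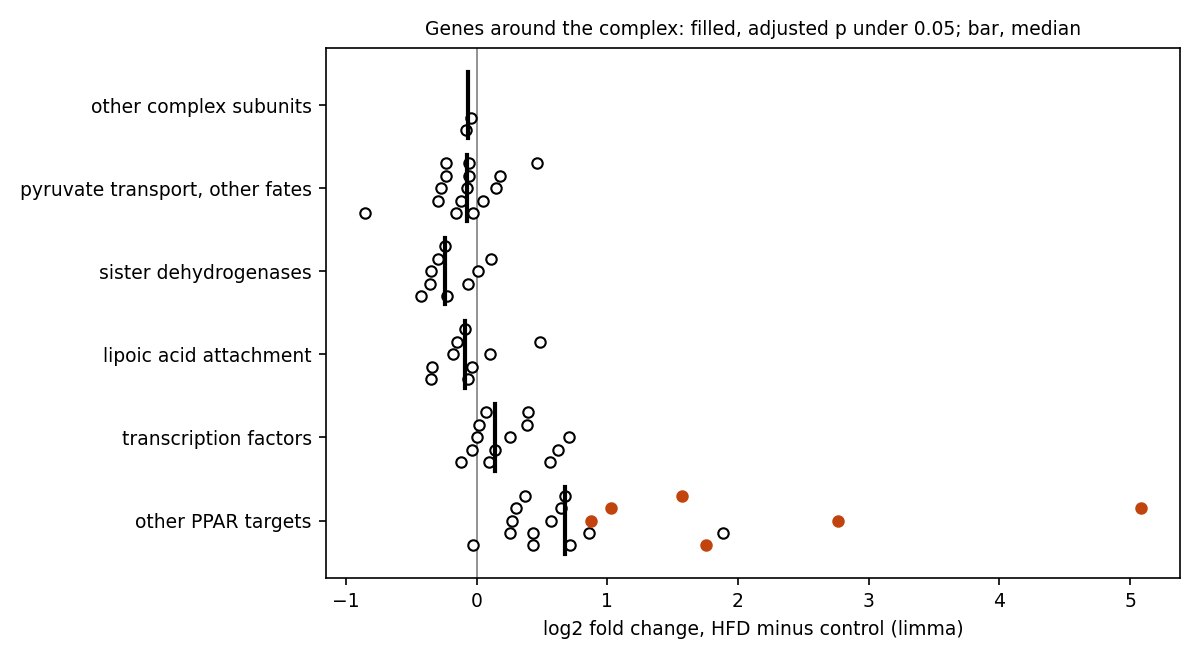
Log2 fold change, HFD minus control, of each tested gene of the 6 lists (points, spread vertically only for legibility), with filled points for an adjusted p under 0.05 and a black bar at the median of each list. The 6 filled points are all among the other PPAR targets, whose median is 0.68, and the medians of the other lists lie between -0.24 and 0.14.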

How the data were processed

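Atrial RNA of 3 HFD and 3 control mice was made into directional libraries. The authors aligned reads with STAR to GRCm38 (Ensembl 79), kept unique alignments, assigned them to genes with Salmon and analysed them with DESeq2 (versions not given in the sources used here). The signal they deposited for each gene is a normalized count, the read count divided by the size factor of its sample. Dividing by the value of 1 read gave whole reads for 100% of values in each sample (tolerance 0.01). Also deposited are the authors' fold changes with their errors, statistics and p-values, which were not used. A row without a gene was left out.

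Values were tested with limma 3.58.1 (lmFit, eBayes with trend, R 4.3.3) on log2(normalized count + 1). All 6 samples entered without covariates, genes needed a mean of 10 or more, and calls were made at an adjusted p under 0.05 (Benjamini-Hochberg). A pseudocount of 1 understates the change of low genes. With 3 reads as the smallest signal the floor was 2.05 to 3.41 normalized counts, counting error only. Lengths came from GENCODE, which matched 42462 of 43432 identifiers. Every member is named. Of the other lists, genes past the threshold (1 is not reported here) and the most abundant of the rest are named, and Gpt, Klf15 and Ppara were added after their values were seen. Members and lists were chosen with earlier results of these data known. Nothing states whether or how animals were pooled, so p-values measure the spread between these samples. The alternatives were edgeR 4.0.16 and DESeq2 1.42.0 on recovered reads, other pseudocounts, filters and normalizations, a replicate block and each mouse left out. The scripts were tested on simulated data.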

Additional observations from a re-analysis of the deposited data

How the results depend on the processing

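In 15 alternatives each, 130 of 135 differences of the 9 members other than Pdk4 kept their direction and their side of the threshold, and the untested Pdk4 difference stayed between 2.93 and 3.52. DESeq2 on recovered reads called 1 of the 9 members other than Pdk4 (Pdk3) and 470 genes against 114, limma without a variance trend called 0 genes (1717 at an unadjusted p under 0.05), and leaving out 1 mouse gave 14 (without control mouse 2) to 342 genes (without HFD mouse 3), with 52 without HFD mouse 1, 24 without HFD mouse 2, 50 without control mouse 1 and 19 without control mouse 3. None of the 9 members was called in the other 14 alternatives, which does not show that they did not differ. The sign turned with 1 mouse left out for Pdk1 (range -0.0185 to 0.245), Pdpr (-0.335 to 0.277), Pdhx (-0.0887 to 0.0228), Dld (-0.123 to 0.0200), Pkm (-0.128 to 0.0772), Ogdh (-0.178 to 0.0226) and Isca1 (-0.117 to 0.00026). Leaving out HFD mouse 2 did so for Pdk1, Pdpr, Dld, Pkm and Isca1, control mouse 2 for Pdhx, Dld (0.0024) and Pkm (0.0186), control mouse 1 for Pdpr (-0.117) and HFD mouse 1 for Ogdh. The cause was not tested, and each of these differences was small beside its error. The Pdk4 share of the kinases in control atria was 30.3% with the longest transcript against 37.8% with all exons.

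Replicate numbers 1 to 3 were given within each diet group, and same-numbered mice did not deviate together (correlations 0.116, -0.027 and -0.0039, with HFD mouse 2 nearest to control mouse 3). With the replicate block 157 genes were called, 101 of them shared with the fit without it, and none of the 9 members. Depth limits Pdp2, Pdpr and Pdk3 most.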
